A study of Homo sapiens with 12 samples.

Results

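The expression of 10 genes of carbonyl reduction and glucuronidation was examined in a pair of MET-amplified human gastric cancer cell lines exposed to the MET inhibitor crizotinib. The genes were the aldo-keto reductases AKR1A1, AKR1B1, AKR1B10, AKR1C1, AKR1C2 and AKR1C3, the UDP-glucuronosyltransferases UGT2B7, UGT2B17 and UGT1A6, and the aldehyde dehydrogenase ALDH1A1, out of 20046 genes named on the array. They were chosen by symbol with their responses in these data already known, so their values are given as a description, without a test. SNU-5 and MKN45 cells were each left untreated (control) or exposed to 1 µM crizotinib for 24 h, and total RNA of 3 samples per group was hybridized to Illumina HumanHT-12 v4 beadchips, 12 arrays in all. MKN45 was grown in RPMI-1640 and SNU-5 in Iscove's modified Dulbecco's medium, both with serum, so line and medium cannot be told apart, and each line stands for a single tumor. The labels number the samples of a group but do not say that they were separate cultures, so the errors may be technical.

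Aldo-keto reductases use NADPH to reduce aldehydes and ketones to alcohols. Their AKR1C subfamily acts on steroids and prostaglandins as well as on foreign carbonyl compounds, and several members are inducible targets of the oxidative stress factor NRF2. UDP-glucuronosyltransferases attach glucuronic acid to the resulting alcohols, to phenols and to steroids, which makes them soluble for export. The stomach and intestine express both enzyme groups, and ALDH1A1 works in the opposite direction to the reductases on a shared substrate, oxidizing retinaldehyde to retinoic acid.

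AKR1C2, AKR1C3 and ALDH1A1 had higher signals after crizotinib in SNU-5 cells, while the 1 probe of AKR1C1 was detected on no array. That does not show AKR1C1 to be silent, because 3 of the 6 AKR1C2 probes were likewise detected nowhere. The 150 bases before an annotated transcription start of each of these genes are shown (RefSeq, GRCh38.p14, 5′ to 3′, with matches to the searched motifs in capitals).
AKR1C1, chr10:4963265-4963414, plus strand: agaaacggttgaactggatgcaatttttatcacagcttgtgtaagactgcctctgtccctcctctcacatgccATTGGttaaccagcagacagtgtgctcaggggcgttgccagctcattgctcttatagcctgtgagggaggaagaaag
AKR1C2, chr10:5003858-5004007, minus strand: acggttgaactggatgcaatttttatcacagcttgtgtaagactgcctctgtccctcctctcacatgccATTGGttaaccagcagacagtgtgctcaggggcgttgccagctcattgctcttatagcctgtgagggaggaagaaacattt
AKR1C3, chr10:5048631-5048780, plus strand: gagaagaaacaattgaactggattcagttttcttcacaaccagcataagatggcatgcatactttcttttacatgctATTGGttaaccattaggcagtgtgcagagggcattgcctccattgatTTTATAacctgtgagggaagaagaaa
ALDH1A1, chr9:72953054-72953203, minus strand: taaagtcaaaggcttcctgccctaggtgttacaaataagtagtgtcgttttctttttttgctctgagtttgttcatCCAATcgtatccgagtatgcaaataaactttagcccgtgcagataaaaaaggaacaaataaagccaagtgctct
The AKR1C1 and AKR1C2 stretches were nearly the same, with 145 identical bases over 154 aligned columns (94.2%). AKR1C3 shared 72.1% of aligned columns with AKR1C1 and 67.7% with AKR1C2, whereas ALDH1A1 shared 44.7% to 45.6% with the reductases. All 4 stretches held the pentamer CCAAT, inverted (ATTGG) in the reductases and forward in ALDH1A1. Counted from the start site, it began at -77 in AKR1C1, -81 in AKR1C2, -73 in AKR1C3 and -74 in ALDH1A1. On either strand, 34.6% of 35116 RefSeq promoter windows of 300 bases held it. Those windows are longer than the 150 bases shown, for which no share was computed. An inverted TATAAA (the TATA box, in 11.5% of all windows) began at -26 in AKR1C3. AKR1C3 has a pair of annotated starts, and at the one not shown the window held no TATAAA and its inverted CCAAT began at -86. Within the whole windows, 250 bases before to 50 after the start, neither the antioxidant response element core TGACNNNGC (13.3% of all windows) nor the AP-1 site TGACTCA (4.95%) nor the xenobiotic response element core GCGTG (36.5%) was found in these 4 genes. For UGT1A6, with a pair of annotated starts, one window held TGACNNNGC and the other GCGTG. Windows were found for 8 of the 10 genes. The matches are letters in a window and say nothing of binding. Sequence outside the windows was not searched, so a missing match says nothing of control by these factors.

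Of the 10 genes, 8 had a probe by symbol, 19 probes in all, and AKR1A1 (aldehyde reductase) and AKR1B1 (aldose reductase, of the polyol pathway) had none. A probe was tested where its detection p was under 0.05 on at least 3 of 12 arrays, which 12 of the 19 probes and 6 of the 8 genes passed. AKR1C1, which inactivates progesterone, had 1 probe (ILMN_1662507) that was detected on no array, at 4.24 to 4.35 on the log2 scale. UGT2B7, which glucuronidates opioids and estrogens, had 1 probe (ILMN_1718833) that was detected on 1 SNU-5 crizotinib array (4.97) and 1 MKN45 crizotinib array (5.04) and on no control array. Levels throughout are background-corrected, quantile-normalized log2 signals. The dimmest detected probe of an array had a level of 4.84 to 4.93, which marks the range below which a level is only a bound. Levels are relative to the whole RNA of an array, so fewer cells of a kind and less RNA per cell cannot be told apart.

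The arrays had mean raw signals of 312.5 to 557.2 and 18998 to 20248 detected probes each. The lowest correlation between arrays of a group was 0.986 to 0.989 in 3 groups and 0.964 in SNU-5 control, whose replicate 1 stood apart (r = 0.964 and 0.974). Leaving that array out changed none of the calls of the 12 tested probes. All 5 epithelial markers were detected in both lines, but CDH1, encoding E-cadherin, was detected on only 1 of 3 SNU-5 control arrays (4.39 to 4.88) against 11.29 to 12.13 in MKN45 control. No array detected the leukocyte markers PTPRC or CD3E, the endothelial markers CDH5, KDR or VWF, or the fibroblast marker PDGFRB. The other endothelial markers went the other way in SNU-5. PECAM1 was detected in SNU-5 control and TEK in both SNU-5 groups, though not on every array, and neither was detected in MKN45. Among the fibroblast markers, COL1A2 fell in SNU-5 cells from 7.12 to 8.85 to a level detected on no array (at least 8.28-fold lower), and DCN rose by 2.62. COL1A2 passed the probe filter only through SNU-5 control and DCN only through SNU-5 crizotinib, so no p is given for them. COL1A1 was detected on 3 of 3 arrays of each MKN45 group, with a change of 0.47 there, under the fold threshold. In SNU-5 it was detected on 2 of 3 control arrays and on no crizotinib array. COL3A1 was detected in SNU-5 crizotinib only. The summed raw signal of the 5 fibroblast genes was 383.3 to 1076 in SNU-5 control and 347.4 to 398.1 in SNU-5 crizotinib arrays. In MKN45 it was 258.9 to 293 in control and 292.6 to 312.3 in crizotinib arrays. The leukocyte list, of which CD14 and CD68 were detected in both lines, summed to 1376 to 3389 in SNU-5 control and 935.1 to 1234 in SNU-5 crizotinib arrays. After crizotinib 0 of its 2 tested genes were called in either line, beside 14.5% of all genes. CD14 was 1.999-fold lower after crizotinib in SNU-5 (limma, adjusted p = 0.0011), just short of the fold threshold. Its level was 5.38 higher in SNU-5 control than in MKN45 control, where 2 of 3 arrays detected it (limma, adjusted p = 7.5e-11). Of the epithelial list 0 of 5 were called in SNU-5 and 1 of 5 in MKN45, beside 14.5% of all genes in each line. The called gene was KRT8, which fell by 2.36 in MKN45 (limma, adjusted p = 1.4e-05). The part of these markers in the changes below was not tested.

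**Figure D1:**
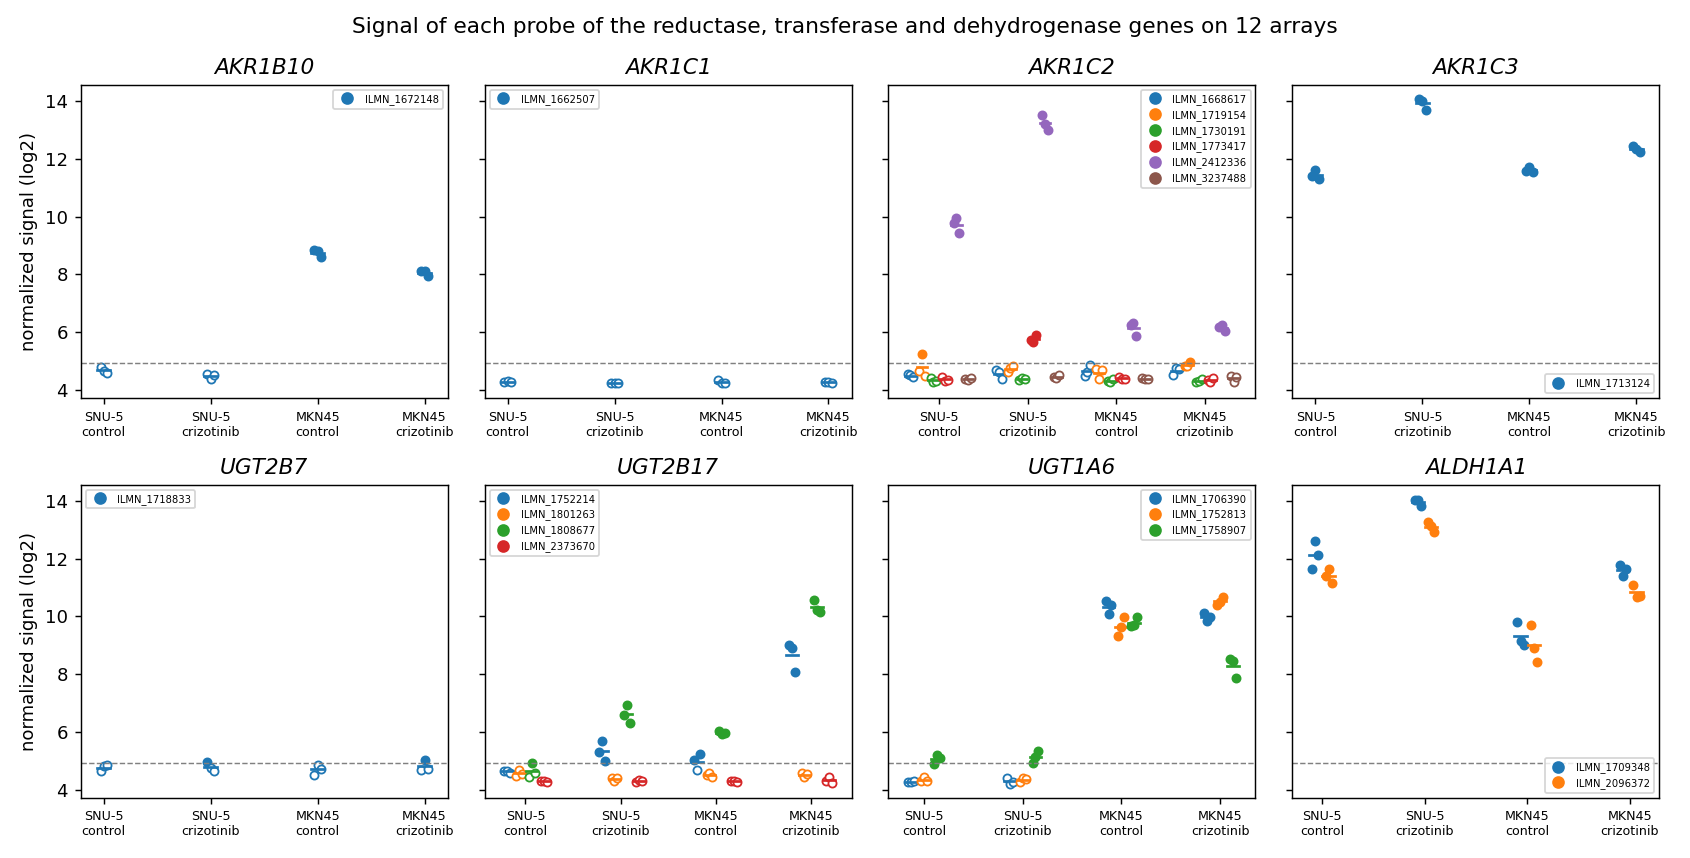
Normalized signal (log2, vertical axis) of every probe of the 8 genes with a probe, on the 3 arrays of each group (horizontal axis). Filled points were detected (p under 0.05), open points were not, short lines are group means, colours are probes, and the dashed line at 4.93 is the highest of the arrays' dimmest detected levels. AKR1C2 and AKR1C3 are highest in SNU-5 crizotinib, UGT2B17 in MKN45 crizotinib, and AKR1B10 and UGT1A6 are high only in MKN45.

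A gene was called changed where p was under 0.001, the Benjamini-Hochberg adjusted p under 0.05 and the change at least 2-fold, at its probe with the highest mean signal. In SNU-5 cells 4 of the 6 measured genes met these thresholds after crizotinib, AKR1C2, AKR1C3, UGT2B17 and ALDH1A1, all higher, where 14.5% of all 12760 genes tested met them in either direction, 7.08% upward and 7.46% downward. In MKN45 cells 2 did, UGT2B17 and ALDH1A1, both higher (14.5% of all genes in either direction, 7.32% upward and 7.19% downward). The genes were selected on these contrasts, so nothing is read from the counts. The median log2 change of the 6 genes was 1.90 in SNU-5 and 0.36 in MKN45, beside 0.02 and 0.00 over all genes.

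AKR1C2, which inactivates dihydrotestosterone, showed the largest change of the reductases, and only in SNU-5. Its brightest probe (ILMN_2412336) had levels of 9.77, 9.96 and 9.43 on the SNU-5 control arrays and 13.51, 13.21 and 12.99 after crizotinib. In MKN45 the levels were 6.26, 6.32 and 5.88 in control and 6.18, 6.24 and 6.03 after crizotinib. The SNU-5 groups were far apart and the MKN45 groups overlapped. The log2 change was 3.52 ± 0.19 (SE, n = 3 and 3; 11.5-fold) in SNU-5 and 0.00 (95% confidence interval -0.41 to 0.41) in MKN45. Untreated SNU-5 cells already stood 3.56 above untreated MKN45 cells on this probe (11.8-fold).

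The other AKR1C2 probes gave much less. Probe ILMN_1773417 was detected on the 3 SNU-5 crizotinib arrays, at 5.72, 5.66 and 5.90, and on none of the other 9, so that it was at least 1.83-fold higher there than in SNU-5 control (measured change 1.39). Without background correction this change was 0.92 and no longer met the fold threshold. ILMN_1773417 passed the probe filter only through the 3 SNU-5 crizotinib arrays. Probe ILMN_1719154 stayed between 4.37 and 5.26 with overlapping SNU-5 groups, and 3 further probes (ILMN_1668617, ILMN_1730191 and ILMN_3237488) were detected nowhere. All 6 probes carry the same gene symbol and probe sequences were not used here, so whether a probe separates AKR1C2 from its close relatives was not checked.

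AKR1C3, which makes testosterone and also reduces prostaglandins, was detected on all 12 arrays by its only probe (ILMN_1713124). Levels were 11.39, 11.60 and 11.31 in SNU-5 control and 14.06, 14.01 and 13.67 in SNU-5 crizotinib. In MKN45 they were 11.56, 11.72 and 11.53 in control and 12.44, 12.34 and 12.22 after crizotinib. The drug-treated arrays lay above the controls in both lines without overlap. The change was 2.48 ± 0.15 (SE; 5.58-fold) in SNU-5 and 0.73 ± 0.15 (1.66-fold, under the fold threshold) in MKN45, a difference of 1.75 between lines (95% confidence interval 1.28 to 2.21). In order of level, SNU-5 crizotinib came first and MKN45 crizotinib second, and the control groups of the lines overlapped (difference -0.17, 95% confidence interval -0.50 to 0.16).

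AKR1B10, a reductase of retinaldehyde and other aldehydes, had a pattern of its own. Its probe (ILMN_1672148) was detected on no SNU-5 array, with levels of 4.60 to 4.80 in control and 4.37 to 4.57 after crizotinib. The MKN45 control arrays had 8.86, 8.80 and 8.61, at least 14.6-fold above SNU-5 control, and the MKN45 crizotinib arrays 8.13, 8.11 and 7.94. The measured difference of the controls, -4.07 (SNU-5 less MKN45), was -2.92 without background correction, which lies below that bound. The MKN45 groups did not overlap, and the change of -0.69 ± 0.14 (SE) was below the fold threshold. Its neighbor in the family AKR1B15, not among the 10 genes, was 1.99-fold lower in MKN45 after crizotinib (adjusted p = 2.4e-04, just short of the fold threshold) and was likewise undetected in SNU-5.

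UGT2B17, the main enzyme for glucuronidating testosterone and dihydrotestosterone, was higher after crizotinib in both lines, more so in MKN45. Its brightest probe (ILMN_1808677) had levels of 6.02, 5.94 and 5.97 on MKN45 control arrays and 10.57, 10.22 and 10.15 after crizotinib. In SNU-5 the levels were 4.45, 4.93 and 4.59 in control, where 1 of 3 arrays detected it, and 6.58, 6.95 and 6.30 after crizotinib. Neither line's groups overlapped. The change was 4.34 ± 0.19 (SE; 20.2-fold) in MKN45 and 1.95 ± 0.19 (3.86-fold) in SNU-5, so that the SNU-5 change was 2.39 smaller (95% confidence interval of the difference -2.97 to -1.81). The SNU-5 control level lies at the detection limit, and without background correction the changes were 3.68 in MKN45 and 1.19 in SNU-5. Untreated SNU-5 stood 1.32 below untreated MKN45, but this was 0.76 and short of the fold threshold without background correction.

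A further UGT2B17 probe (ILMN_1752214) gave 5.02, 4.68 and 5.23 in MKN45 control and 9.01, 8.89 and 8.08 after crizotinib, a change of 3.68 (2.67 without background correction). In SNU-5 it was detected on no control array and on all 3 crizotinib arrays, at 5.31, 5.69 and 5.01 (at least 1.37-fold higher). Both probes thus had the larger change in MKN45. The remaining probes, ILMN_1801263 and ILMN_2373670, were detected on no array.

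UGT1A6, which conjugates small planar phenols, was measured in MKN45 by 3 probes that did not share a direction. UGT1A6 shares its later exons with the other UGT1A genes and differs from them in its first exon. ILMN_1706390, the brightest, had 10.54, 10.08 and 10.38 in MKN45 control and 10.10, 9.84 and 9.99 after crizotinib, overlapping groups with a change of -0.35 ± 0.15 (SE). ILMN_1758907, annotated to the same RefSeq transcript, had 9.68, 9.71 and 9.97 in control and 8.54, 8.46 and 7.88 after crizotinib, a change of -1.49 ± 0.19 that met the thresholds. ILMN_1752813, annotated to another transcript, had 9.32, 9.63 and 9.99 in control and 10.39, 10.51 and 10.66 after crizotinib, a change of 0.87 ± 0.17 that met them only without MKN45 control replicate 3 (1.05). The gene-level value of UGT1A6 thus rests on the choice of probe.

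In SNU-5 the first and the last of these UGT1A6 probes were detected on no array, and MKN45 control stood at least 43.6-fold and at least 27.1-fold above SNU-5 control. The measured differences of the controls, -6.05 and -5.30 (SNU-5 less MKN45), were -4.93 and -4.14 without background correction, below those bounds. ILMN_1758907 was detected on all 6 SNU-5 arrays, between 4.91 and 5.33, with overlapping groups and a change of 0.06 (95% confidence interval -0.35 to 0.47).

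ALDH1A1 was higher after crizotinib to a like extent in both lines. Probe ILMN_1709348 had levels of 11.64, 12.60 and 12.11 in SNU-5 control and 14.03, 14.03 and 13.83 after crizotinib. In MKN45 it had 9.81, 9.15 and 9.01 in control and 11.79, 11.40 and 11.62 after crizotinib. Neither line's groups overlapped, while SNU-5 control and MKN45 crizotinib did. The change was 1.85 ± 0.25 (SE; 3.61-fold) in SNU-5 and 2.28 ± 0.25 (4.85-fold) in MKN45. The difference between the changes was -0.43 (95% confidence interval -1.18 to 0.33), an interval that includes zero but does not show the changes to be equal.

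Its second probe, ILMN_2096372, gave changes of 1.68 and 1.82, with a difference of -0.13 (95% confidence interval -0.94 to 0.68). Untreated SNU-5 stood above untreated MKN45 on both ALDH1A1 probes, by 2.79 (6.92-fold) and 2.39 (5.25-fold).

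**Figure D2:**
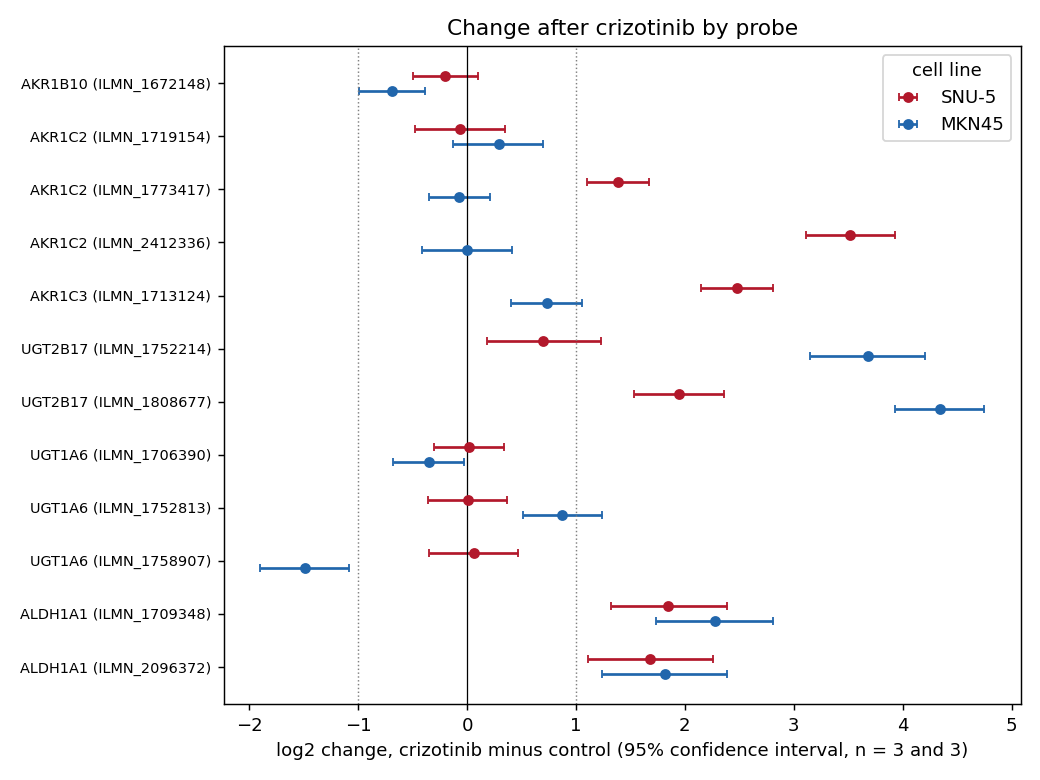
Log2 change after crizotinib (horizontal axis) for each of the 12 tested probes (vertical axis), in SNU-5 (red) and MKN45 (blue), with 95% confidence intervals from 3 arrays against 3. Dotted lines mark 2-fold. The AKR1C2 probe ILMN_2412336 stands at 3.52 in SNU-5 and 0.00 in MKN45, UGT2B17 has the larger change in MKN45, ALDH1A1 is similar in both, and the UGT1A6 probes lie on both sides of zero in MKN45.

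Between the lines, the crizotinib change met the thresholds of a difference for AKR1C2 and AKR1C3 (greater in SNU-5) and UGT2B17 (greater in MKN45), 3 of 6 genes beside 6.75% of all genes (3.32% greater and 3.43% smaller in SNU-5). Untreated SNU-5 and MKN45 differed past the thresholds at 5 of the 6 genes, AKR1C2 and ALDH1A1 higher and AKR1B10, UGT2B17 and UGT1A6 lower in SNU-5, beside 21.6% of all genes (10.9% higher and 10.7% lower).

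Among the other aldo-keto reductases, 8 of 11 genes were tested. In SNU-5, 2 rose and 0 fell, and in MKN45, 1 rose and 0 fell, with medians of 0.60 and 0.24. That is 25% and 12.5% of those tested, beside 14.5% of all genes in each line, and nothing particular to a list is read from such shares here or below. AKR1C4, a steroid reductase best known from liver, rose in SNU-5 by 2.45 ± 0.19 (SE; limma, adjusted p = 8.6e-07), from 10.44, 10.90 and 10.60 to 13.14, 13.08 and 13.06. In MKN45 its change was 0.62 (adjusted p = 0.023, under the fold threshold), and the difference between lines of 1.83 passed (adjusted p = 7.3e-04). The AKR1C3 probe, in comparison, had changes of 2.48 and 0.73. A second AKR1C4 probe rose by 1.91 in SNU-5 (adjusted p = 4.6e-07), from 5.51 to 5.65 in control. It was detected on no MKN45 array, so the AKR1C4 probes differ in whether MKN45 has a signal. Whether either probe separates AKR1C4 from AKR1C3 and its other close relatives was not checked. KCNAB1, a potassium channel subunit of the aldo-keto reductase fold, rose by 1.23 in SNU-5. Its probe passed the probe filter only through SNU-5 crizotinib, so no p is given for it. AKR7A3, an aflatoxin aldehyde reductase, rose by 1.27 in MKN45 (adjusted p = 3.7e-04). KCNAB1 was detected on 2 of 3 SNU-5 control arrays, and its call was lost without background correction (0.73) and without SNU-5 control replicate 1 (1.09) or 2 (1.04) or SNU-5 crizotinib replicate 2 (1.29) or 3 (0.99).

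Of 24 other transferase and UDP-glucuronate supply genes, 13 were tested. In SNU-5, 2 rose and 0 fell, and in MKN45, 4 rose and 1 fell, with medians of 0.25 and 0.50, or 15.4% and 38.5% called beside 14.5% of all genes. The 4 that rose in MKN45 were all UGT2 genes. UGT2B15, which like UGT2B17 conjugates androgens, rose from 5.16, 4.83 and 5.43 to 9.77, 9.36 and 9.31 in MKN45 (change 4.34 ± 0.22, adjusted p = 3.8e-08), where 2 of 3 control arrays detected it. UGT2B11 rose there by 2.99 (adjusted p = 1.4e-07), UGT2A3 by 1.83 (adjusted p = 1.4e-04), and UGT2B10, detected on no MKN45 control array, to at least 3.59-fold. The UGT2B10 probe passed the probe filter only through MKN45 crizotinib, so no p is given for it. A second UGT2A3 probe had a change of 0.15 (adjusted p = 0.56). Without background correction all 4 calls were kept with smaller changes, 3.34 for UGT2B15, 2.13 for UGT2B11, 1.54 for UGT2B10 and 1.19 for UGT2A3.

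In SNU-5 the 2 genes that rose were UGT2B11, to at least 1.76-fold above controls in which no array detected it (adjusted p = 8.5e-04), and UGDH, which makes UDP-glucuronate, by 1.02 (adjusted p = 0.0017). Neither SNU-5 call was kept without background correction, without SNU-5 control replicate 3 (0.94 and 0.93) or without SNU-5 crizotinib replicate 2 (0.87 and 0.97), and UGDH was also lost without replicate 1 of either SNU-5 group (0.94 and 1.02). The UGT2B15, UGT2B11 and UGT2B10 changes were smaller in SNU-5 than in MKN45. The differences were -3.63 (adjusted p = 1.0e-05), -1.95 (adjusted p = 4.1e-04) and, without a p for the same reason as above, -1.91. No SNU-5 control array detected any of the 3 and no MKN45 control array UGT2B10, so these differences rest on levels below detection, and with the deposited values, which have no background correction, they were -2.75, -1.53 and -1.16. UGT1A1, the bilirubin transferase, fell in MKN45 by 1.82, from 8.77, 8.85 and 9.40 to 7.28, 7.15 and 7.14 (adjusted p = 5.4e-06), with no overlap. It was near background in SNU-5 (4.54 to 4.97). The UGT2B genes are close relatives and the UGT1A genes share exons, so signal shared between probes of these genes was not told apart here.

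Of 18 other aldehyde dehydrogenases, 16 were tested. In SNU-5, 4 rose and 1 fell, and in MKN45, 1 rose and 2 fell, with medians of 0.57 and 0.00, or 31.2% and 18.8% called beside 14.5% of all genes. In SNU-5, ALDH6A1, of valine breakdown, rose by 2.11 (adjusted p = 1.2e-05), ALDH3B1 by 1.64 (adjusted p = 9.1e-05), ALDH3A1 by 1.18 (adjusted p = 8.6e-04) and the mitochondrial acetaldehyde dehydrogenase ALDH2 by 1.15 (adjusted p = 0.0026). ALDH3B2 rose in MKN45 by 3.07 (2.14 without background correction), to 8.01 to 8.16. It was detected on no SNU-5 array and on 2 of 3 MKN45 control arrays. Its probe passed the probe filter only through MKN45 crizotinib, so no p is given for it. ALDH1B1 fell in both lines, by 1.34 in SNU-5 (adjusted p = 2.2e-04) and by 1.56 in MKN45 (adjusted p = 6.2e-05), although a dimmer probe had changes of -0.74 and -0.89. ALDH1A2, a retinaldehyde dehydrogenase like ALDH1A1, fell in MKN45 by 1.11 (adjusted p = 0.0014), while ALDH1A1 had its change of 2.28. A dimmer ALDH1A2 probe fell there by 1.35 (adjusted p = 6.0e-05). In SNU-5 the brighter ALDH1A2 probe was near background (4.77 to 5.41). Left without 1 array, ALDH2 lost its call 4 times (lowest change 0.94, without SNU-5 control replicate 3), ALDH3A1 once (0.95, without the same array) and ALDH1A2 without MKN45 control replicate 1 (-0.99) or MKN45 crizotinib replicate 3 (-0.96). The SNU-5 call of ALDH1B1 was lost without background correction (-0.82).

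**Figure D3:**
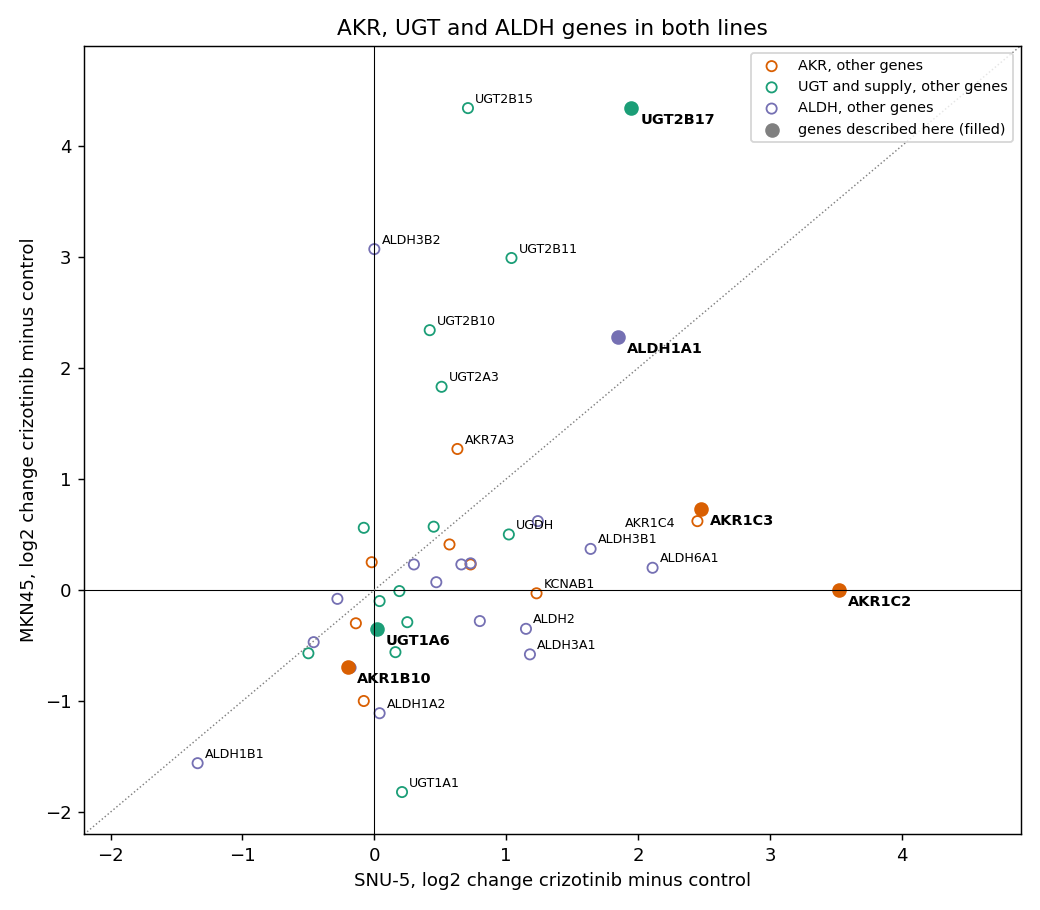
Log2 change after crizotinib in SNU-5 (horizontal axis) and MKN45 (vertical axis) of the tested AKR genes (orange), UGT and UDP-glucuronate supply genes (green) and ALDH genes (purple), at the probe with the highest mean signal. Filled points with bold names are the 6 tested genes of the 10 described, open points the other family members, named where they were called in either line, and the dotted line marks equal change. AKR1C2, AKR1C3 and AKR1C4 lie to the right (SNU-5), and UGT2B17, UGT2B15, UGT2B11 and ALDH3B2 at the top (MKN45).

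Of 32 further carbonyl, steroid and retinoid oxidoreductases, 23 were tested. In SNU-5, 4 rose and 0 fell, and in MKN45, 3 rose and 3 fell, with medians of 0.00 and -0.06, or 17.4% and 26.1% called beside 14.5% of all genes. DHRS3, which reduces retinaldehyde to retinol, rose by 1.10 in SNU-5 (adjusted p = 0.001) and by 1.91 in MKN45 (adjusted p = 1.1e-05). HSD17B8 rose by 1.28 in SNU-5 (adjusted p = 8.0e-05), with DHRS1 (1.06) and HSD17B11 (1.09). In MKN45, DHRS7 rose by 1.14 and DHRS2 by 1.24, while HSD17B12, of fatty acid elongation, fell by 1.51, the carbonyl reductase CBR1 by 1.23 and RDH13 by 1.11. Without SNU-5 control replicate 1 the calls of DHRS1 (0.93) and HSD17B11 (0.83) were lost, the latter also without SNU-5 crizotinib replicate 2 (1.01), and without background correction those of DHRS2 (0.75), CBR1 (-0.88) and RDH13 (-0.91).

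NRF2 and its pathway, with which several AKR1 genes are usually grouped, had 23 of 26 genes tested. In SNU-5, 2 rose and 1 fell, and in MKN45, 1 rose and 2 fell, with medians of 0.28 and -0.20, or 13% and 13% called beside 14.5% of all genes. GCLC, of glutathione synthesis, rose by 1.69 in SNU-5 (adjusted p = 1.5e-05) and the epoxide hydrolase EPHX1 by 1.35 (adjusted p = 5.8e-04), whereas SRXN1, which repairs peroxiredoxins, fell by 1.28 (adjusted p = 2.9e-04). In MKN45 the export pump ABCC3 rose by 1.82 (adjusted p = 1.0e-04), SRXN1 fell by 1.35 (adjusted p = 1.8e-04) and the malic enzyme ME1 by 1.74 (adjusted p = 2.9e-04). NQO1, often read as an NRF2 target, had a change of 0.82 in SNU-5 cells and 0.13 in MKN45 cells, and NFE2L2, encoding NRF2, of 0.30 and -0.88, none past the fold threshold. The NFE2L2 changes differed between lines by 1.18 (adjusted p = 0.016), which met the thresholds, but that call was lost under 9 of 12 omissions of 1 array (0.99 to 1.30 over the 12), with the replicate block and with no filter on dim probes. The EPHX1 call was lost when the lines were fitted separately, with the change still 1.35. NQO1 and NFE2L2 were named after their values were seen.

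Of 28 receptors, sulfotransferases and pumps, 15 were tested. In SNU-5, 4 rose and 1 fell, and in MKN45, 3 rose and 0 fell, with medians of 0.63 and 0.55, or 33.3% and 20% called beside 14.5% of all genes. CDX2, an intestinal transcription factor, rose in both lines, by 2.45 in SNU-5 (adjusted p = 6.7e-07) and by 1.67 in MKN45 (adjusted p = 1.6e-05), and so did FOXA1 (1.54 and 1.24). CYP1B1 rose by 2.37 in SNU-5 (adjusted p = 5.5e-06) and ARNT, the partner of the aryl hydrocarbon receptor, by 1.20 (adjusted p = 2.0e-04), while the pump ABCC4 fell by 1.27 (adjusted p = 0.0012). SULT2B1, a cholesterol sulfotransferase, rose by 1.71 in MKN45 (adjusted p = 6.0e-04; 1.08 without background correction). The MKN45 call of FOXA1 was lost under 8 of 12 omissions of 1 array (lowest change 0.98, without MKN45 control replicate 3), that of ABCC4 without SNU-5 crizotinib replicate 1 (-1.18), and those of ARNT (0.73) and ABCC4 (-0.75) without background correction.

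For each of the 6 measured genes, the 3 genes with the highest Pearson correlation over the 12 arrays were listed. The arrays form 4 groups, so these correlations mostly follow the group means and are given as a description only. SUSD2 (r = 0.996), RTP4 (0.995) and SLC26A3 (0.994) came closest to AKR1C2. N4BP2L1 (0.988), CD79B (0.984) and RAB40B (0.982) came closest to AKR1C3. UGT2B11 (0.993), DHX32 (0.989) and FBXO15 (0.983) came closest to UGT2B17, and ST13P4 (0.992), PLD1 (0.989) and PEX2 (0.987) to ALDH1A1. AKR1B10 was matched by FADS1 (0.999), SLC27A2 (0.998) and MYO1D (0.998), and UGT1A6 by EPDR1, LDHB and MARVELD3 (0.999 each). PLD1, for one, was 1.68 higher in SNU-5 crizotinib than control arrays and 1.91 higher in MKN45.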

How the data were processed

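RNA of 12 samples (SNU-5 and MKN45, control and 1 µM crizotinib, n = 3 each) was hybridized to Illumina HumanHT-12 v4 arrays. The authors deposited probe intensity values with a detection p-value for 47323 probes per array, and quantile-normalized log2 values, made in limma per the methods. The intensities were corrected and normalized here with neqc (normexp background from the detection p-values, offset 16, quantile, log2) in limma 3.58.1 (R 4.3.3). Probes detected at p under 0.05 on at least 3 of 12 arrays (23525 probes, 49.71%, 12760 genes) entered 1 lmFit and eBayes fit with 4 group means, with Benjamini-Hochberg adjustment over all of them. A probe could pass only through the group where it was high, as those of COL1A2, DCN, UGT2B10, ALDH3B2 and KCNAB1 did, and no p is given for these. A call took p under 0.001, adjusted p under 0.05 and 2-fold, as in the study. The deposited log2 values were an alternative. Where no array of a group detected a probe, the fold is "at least" the brighter group's mean over the higher, per array, of the dimmest detected level and the probe's own. Symbols came from the platform annotation (30113 probes with 1 symbol, 8 with several, 17202 with none). A gene's value is that of its probe with the highest mean signal. The number of arrays limits the precision.

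The 10 genes and the wider lists were chosen with earlier results of these data known. All 10 genes are reported, with every probe. From each wider list, the rule named up to 4 called genes with the smallest adjusted p, all genes of a count of 5 or fewer, and the 3 most correlated genes per measured gene. AKR1B15, CDH1, COL1A2 and DCN were named after their values were seen, as were second probes. The fit was tested on simulated data. Other alternatives left out background correction, the probe filter, the thresholds or 1 array, fitted the lines separately, added a replicate block, took any probe of a gene, or ran limma on each line's deposited values in place of the random variance test of the methods. Promoter windows came from RefSeq (GRCh38.p14).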

Additional observations from a re-analysis of the deposited data

Results flagged for a closer look

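For the genes below, the difference between the SNU-5 and MKN45 crizotinib changes met the thresholds. It is the SNU-5 change less the MKN45 change on the log2 scale. A positive value means that SNU-5 rose more or fell less than MKN45, not that SNU-5 moved more. UGT1A1, ME1, NFE2L2 and UGT1A6 at ILMN_1758907 had positive values mainly through lower levels in MKN45 after crizotinib. Their MKN45 changes were -1.82, -1.74, -0.88 and -1.49, beside 0.21, 0.32, 0.3 and 0.06 in SNU-5. The 10 genes were selected with these contrasts known, so their values are descriptions. AKR1C2 had 3.52 at its brightest probe, and AKR1C3 had 1.75. AKR1C2 had 1.45 at ILMN_1773417, which was detected in no other group than SNU-5 crizotinib. That probe thus passed the filter only through the group where it was high. UGT2B17 had -2.39 and -2.98 at its measured probes. UGT1A6 had 1.55 at ILMN_1758907 alone of its 3 probes, and that probe was near background in SNU-5 (4.91 to 5.33). The other UGT1A6 probes, detected on no SNU-5 array, did not share a direction. ILMN_1752813 had -0.87, which was called with adjusted p alone and without MKN45 control replicate 3 (-1.04). ILMN_1706390 had 0.37 and was not called. Of the relatives, AKR1C4 had 1.83, UGT1A1, near background in SNU-5, had 2.03, and UGT2B15, UGT2B11 and UGT2B10, detected on no SNU-5 control array, had -3.63, -1.95 and -1.91 (-2.75, -1.53 and -1.16 with the deposited values). Among the aldehyde dehydrogenases, ALDH3B2, undetected in SNU-5, had -3.07 (-2.15 with the deposited values), ALDH6A1 had 1.91, ALDH3A1 had 1.75 and ALDH2 had 1.5. The UGT2B10 and ALDH3B2 probes passed the filter only through MKN45 crizotinib, where they were high. The ALDH2 difference was no longer called with no filter on dim probes and under 10 of 12 omissions of 1 array (1.29 to 1.83 over the 12), all but those of SNU-5 control replicate 1 and SNU-5 crizotinib replicate 3. HSD17B8 had 1.31, ME1 had 2.06, CYP1B1 had 1.73 and SULT2B1 had -2.80 (-1.88 with the deposited values). DHRS2 had -1.54, which was -0.94 and no longer called without background correction and with the deposited values. NFE2L2 had 1.18, which was no longer called under 9 of 12 omissions of 1 array, with the replicate block or with no filter on dim probes. The omissions that kept it were those of SNU-5 control replicate 3, MKN45 control replicate 2 and MKN45 crizotinib replicate 3. Line and culture medium cannot be told apart in these differences.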

How the results depend on the processing

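None of the values recomputed changed sign in a called direction. The number of the 10 genes called stayed at 4 in SNU-5 and 2 in MKN45 when any 1 array was left out, and under each other alternative, except in MKN45 with adjusted p alone (4, with AKR1B10 and AKR1C3) and with any probe of a gene (3, with UGT1A6). Of 804 recomputed probe changes of these genes, 28 moved by more than 1 SD. Of 1110 recomputed called changes of the wider lists, 90 were no longer called, over 17 genes. The counts of called genes per wider list were less stable, and the cause was not tested. In SNU-5 the other aldo-keto reductases (2 called) gave 1 without background correction, with the deposited values, with separate fits and with the random variance substitute, and 4 by adjusted p alone. The other transferases (2) gave 0, 0, 1, 0 and 4 in that order, the aldehyde dehydrogenases (5) gave 3 with the random variance substitute and 10 by adjusted p alone, the oxidoreductases (4) gave 11 and the NRF2 pathway (3) gave 9 by adjusted p alone, and the receptors and pumps (5) gave 3 without background correction, with the deposited values and with the random variance substitute. In MKN45 adjusted p alone gave 3 for the aldo-keto reductases (1), 12 for the oxidoreductases (6), 9 for the NRF2 pathway (3) and 8 for the receptors and pumps (3, or 5 with any probe). The oxidoreductases gave 3 without background correction, with the deposited values and with the random variance substitute. Over all genes, adjusted p alone called 4489 in SNU-5 and 4566 in MKN45, against 1856 and 1852, and the random variance substitute called 1172 in SNU-5.

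With 1 array left out, the SNU-5 counts ranged over 1 to 2 for the aldo-keto reductases, 0 to 2 for the transferases (0 without replicate 3 of the SNU-5 controls or replicate 2 of SNU-5 crizotinib), 3 to 5 for the aldehyde dehydrogenases (3 without SNU-5 control replicate 3), 3 to 5 for the oxidoreductases, 3 to 4 for the NRF2 pathway and 4 to 7 for the receptors and pumps. The MKN45 counts ranged over 1 to 2, 5 to 5, 2 to 3, 6 to 6, 3 to 5 (5 without MKN45 crizotinib replicate 3) and 2 to 4 in the same order. Same-numbered arrays of a line deviated together with correlations of 0.01 to 0.45, not above 0.1 in every pair, and 3 of 6 had their own number as best match, so the numbers were not taken as a pairing. The replicate block called 1909 genes in SNU-5 and 1898 in MKN45, with 4 and 2 of the 10 genes. The contrast of untreated lines has no block or separate fit. Probes near 4.93 limit what can be said of AKR1C1, UGT2B7 and, in SNU-5, AKR1B10.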
